A study of Mus musculus with 6 samples.

Results

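The transcription factor genes Gata3, Tbx21, Rora, Bcl6, Maf, Prdm1, Irf4, Batf, Pparg and Nfil3, which are known for directing helper T cell lineages or the effector state of regulatory T cells, were examined as a group. All 10 were found by symbol among the 55840 genes of the deposited count table, and all 10 passed the filter on low counts, as did 14919 genes in all. RNA came from mouse regulatory T cells (Tregs) of spleen and lymph nodes. The 3 libraries of the genotype WT carry unaltered Foxp3, and the 3 of the genotype Exon2KO, which the series title writes as Foxp3 with a delta 2 mark, lack its exon 2. No strain, age, sex or sorting gate is given in the sources used here, no treatment is named for either genotype, and whether replicates were separate animals is stated only as biological replicates. P-values therefore measure the spread between these libraries.

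Tregs are CD4 T cells that hold other immune cells in check, and Foxp3 is the factor that defines them. Resting Tregs can take up an effector state, in which BATF and IRF4 bind DNA together at composite sites and BLIMP1, the product of Prdm1, marks the most differentiated cells. Tregs also borrow the lineage factors of helper cells: T-bet (Tbx21) for type 1 responses, GATA3 for type 2, RORα among the factors of type 17, and BCL6 with c-MAF for follicular cells. GATA3, RORα and PPARγ are further known for Tregs that live in tissues such as skin and fat.

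The promoters of Gata3 and Batf are shown because these were the genes of the group that passed the test without a replicate block. RefSeq promoter entries (build GRCm38.p6) were matched by symbol for 9 of the 10 genes; Maf had no match. The Gata3 stretch lies on the minus strand at chr2:9878601-9878850 and ends at the base before the RefSeq start; the Batf stretch lies on the plus strand at chr12:85686470-85686668 and was cut where the first annotated exon begins. Capitals mark matches to AGATAA (the GATA motif), TGTTTNC (forkhead) or TGANTCA (AP-1, the kind of site that BATF shares) on either strand.

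Gata3: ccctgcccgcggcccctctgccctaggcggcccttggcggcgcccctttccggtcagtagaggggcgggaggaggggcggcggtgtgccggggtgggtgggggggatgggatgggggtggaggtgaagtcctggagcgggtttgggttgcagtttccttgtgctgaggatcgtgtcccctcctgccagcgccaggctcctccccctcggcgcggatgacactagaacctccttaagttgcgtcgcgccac
Batf: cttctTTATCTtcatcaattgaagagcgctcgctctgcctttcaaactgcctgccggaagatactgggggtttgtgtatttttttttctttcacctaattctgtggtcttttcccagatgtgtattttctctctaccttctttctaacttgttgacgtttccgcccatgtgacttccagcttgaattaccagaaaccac

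The Gata3 stretch held none of the 3 motifs and had a GC content of 70.0%. In the Batf stretch, with a GC content of 42.2%, the single match was TTATCT, the GATA motif read from the other strand. It lay 245 bases before the RefSeq start, which is past the end of the stretch shown, since that was cut at the first annotated exon. Over all 32817 promoter windows of 300 bases, 11.2% held the GATA motif, 20.5% the forkhead motif and 7.81% the AP-1 motif. Of the 12 windows of the 9 matched genes, 3 held the forkhead motif (Rora, Prdm1 and 1 of the Bcl6 windows), 1 the GATA motif (Batf) and 1 the AP-1 motif (Prdm1). These are matches of letters, not binding sites.

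Total counts ran from 17998216 to 21003496 per library, and 3 counts, the smallest level taken as shown, corresponded to 0.141 to 0.169 CPM, the count scaled to a library of fixed size, which covers counting error only. Column names give each library a genotype and a number (2, 6 or 20), and libraries are called by them here, such as WT 20. After each gene was centred on its genotype mean, WT and Exon2KO libraries of numbers 2, 6 and 20 correlated at 0.272, 0.369 and 0.494 across the 14919 genes. The Treg markers Cd3e, Cd4, Foxp3, Il2ra, Ctla4, Ikzf2, Izumo1r and Tnfrsf18 summed to 3845 to 4319 CPM in WT and 3335 to 3818 in Exon2KO. Of these 8, edgeR called 4 lower (Il2ra, Ctla4, Ikzf2 and Izumo1r) and, with the block, Tnfrsf18 as well, while Foxp3 (712 and 812 CPM on average) and Cd4 (666 and 774) were not called. Each of the 4 calls was lost in at least 1 of the fits without a single library, at edgeR adjusted p-values up to 0.0566 for Ctla4, 0.122 for Ikzf2, 0.172 for Il2ra and 0.221 for Izumo1r. The part of these changes in those of the 10 factors was not tested. The counts are per gene, so the missing exon could not be seen in them and the genotype labels were not checked. Sums of 8 B cell markers were 33.4 to 35.1 CPM in WT and 27.0 to 29.6 in Exon2KO; without Cd79b, at 21.6 and 15.2 CPM on average, they were 12.1 to 13.6 and 12.6 to 15.0. Those of 7 CD8 and NK cell markers were 26.7 to 29.9 and 26.8 to 31.5. Sums of 5 plasma cell markers, most of it Xbp1, were 95.4 to 118 CPM in WT and 96.1 to 106 in Exon2KO; Mzb1 stayed under 0.45 CPM. Jchain, at 27.4, 31.0 and 12.6 CPM in WT 2, 6 and 20 and 16.4, 17.4 and 8.22 CPM in Exon2KO, was called lower with the block (log2 fold change -0.74, edgeR adjusted p = 0.000273). Plasma cells also express Prdm1 and Irf4, and the part of such cells in the values of those genes was not tested. Sums of 9 myeloid markers followed the column number, at 82.4 and 67.5 CPM in WT 20 and Exon2KO 20 against 31.8 to 38.2 in the others. Sums of 5 erythroid markers were 4.93 to 16.4 and 3.38 to 11.7 CPM. Stromal and endothelial markers summed to 165 to 192 and 189 to 225 CPM, nearly all of it Pecam1, with Col3a1 at 0 counts in every library. Of 6 markers of mast cells, basophils and group 2 innate lymphoid cells, Fcer1a and Mcpt8 had 0 counts in every library. The sum of the 6 was 11.4 to 11.9 CPM in WT and 8.50 to 11.3 in Exon2KO. Without Hpgds, at 7.59 and 4.47 CPM on average, it was 3.61 to 4.30 and 3.88 to 7.17. Besides Jchain, the block fit called Cd79b, Hpgds and the myeloid marker Lyz2 lower (edgeR adjusted p = 0.00501, 0.0133 and 0.0413). It called Pecam1 higher (edgeR adjusted p = 0.0164).

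Per length, Batf was the most abundant of the 10 transcripts and Pparg the least in both genotypes. In CPM per kilobase of the table's gene length, Batf stood at a level of 55.9 ± 6.24 in WT (SD, n = 3 here and below), above Gata3 at 31.2 ± 3.06 CPM per kilobase without overlap between libraries. Gata3, Maf (27.0 ± 4.42 CPM per kilobase) and Irf4 (25.3 ± 1.73) were neighbours that overlapped. Nfil3 followed at 14.1 ± 6.06 CPM per kilobase, below every Irf4 value. Nfil3, Prdm1 (8.35 ± 1.29 CPM per kilobase), Rora (6.04 ± 2.38) and Bcl6 (5.61 ± 0.081) overlapped each with the next. Tbx21 at 3.49 ± 0.526 CPM per kilobase and Pparg at 0.295 ± 0.140 stood apart below them. In Exon2KO the first 5 places were held by the same genes in the same order, with Batf at 37.4 ± 5.70 CPM per kilobase above Gata3 at 22.4 ± 2.32. Bcl6 (6.03 ± 1.35 CPM per kilobase) and Tbx21 (4.14 ± 1.77) then ranked above Prdm1 (3.76 ± 1.69) and Rora (2.83 ± 0.414). Of these 4, each overlapped with the next in Exon2KO, so neighbours in that order were within the spread, while every Bcl6 value lay above every Rora value.

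To ask how the loss of the exon moved these factors, each gene was compared between genotypes in a fit of all 14919 genes with edgeR's quasi-likelihood test, and called at an adjusted p under 0.05. Gata3 and Batf fell. These 2 of the 10 were called lower, where 1.58% of all tested genes were, and none was called higher (0.757% of all genes were). At an unadjusted p under 0.05, edgeR gave 7 lower and 0 higher, where 7.0% and 5.13% of all tested genes were. DESeq2 called 4 lower and 0 higher, where 2.56% and 1.32% of all genes with an adjusted p were. With limma-voom 2 were lower and 0 higher, where 1.51% and 0.684% of all tested genes were. With the column number as a replicate block, edgeR called Rora and Irf4 lower besides Gata3 and Batf. That gave 4 of 10 against 5.79% of all genes called lower in that fit. The fitted change was negative for 8 of the 10 and positive for Tbx21 and Bcl6. The median log2 fold change was -0.53, beside 0.0084 over all tested genes. For 5 genes (Gata3, Rora, Prdm1, Irf4 and Batf) every Exon2KO library lay below every WT library, as was so for 9.32% of all tested genes. The 10 genes were chosen with earlier results of these data known, so the shares given beside them describe the group and do not test it. In bulk RNA, fewer cells with a transcript and less of it per cell cannot be told apart.

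**Figure D1:**
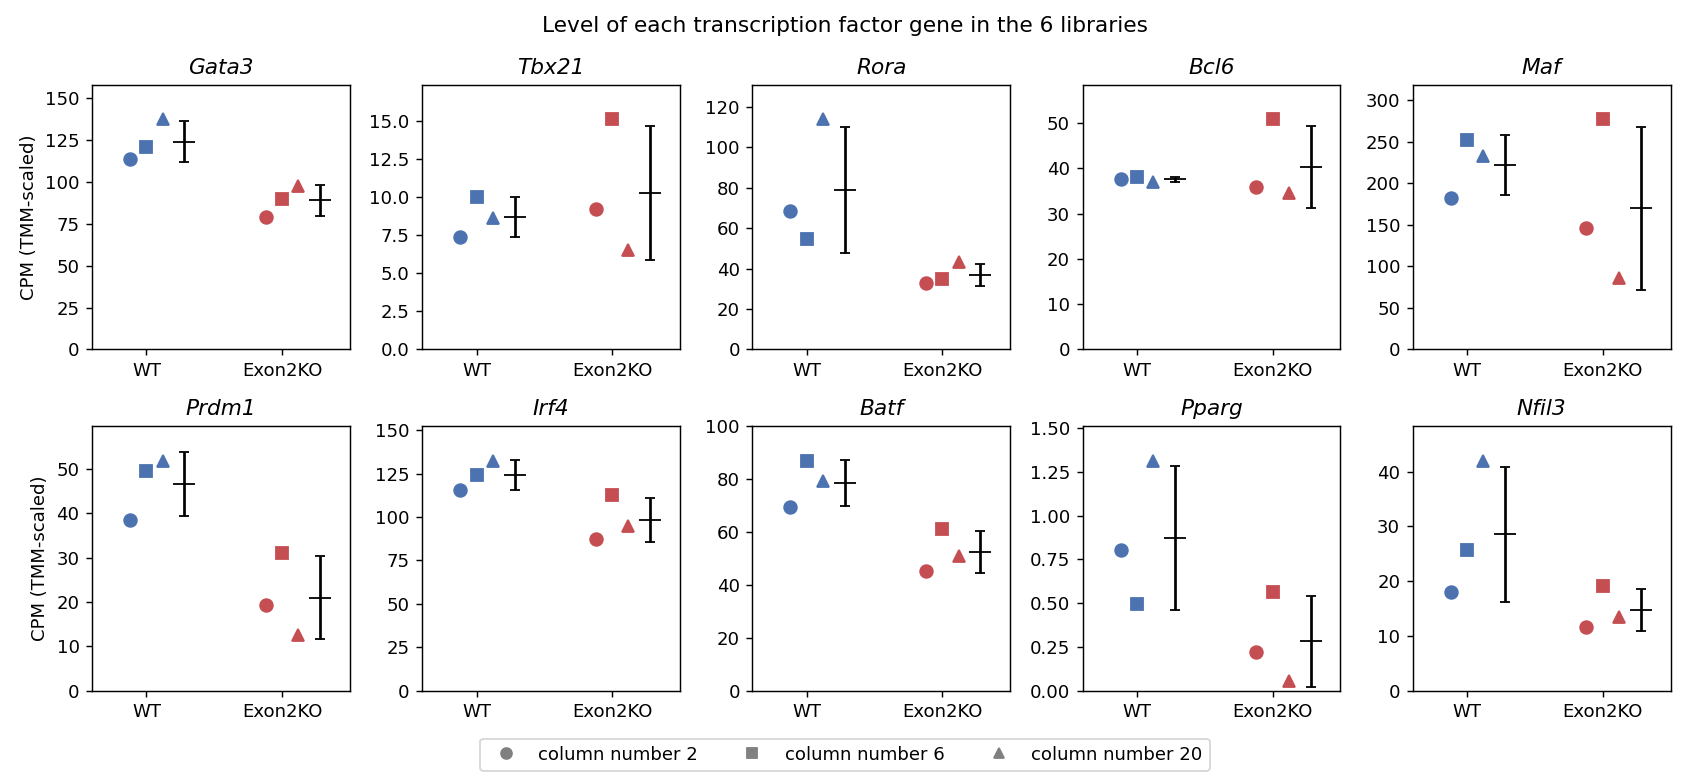
Level of each of the 10 genes in CPM on TMM-scaled library sizes (y axis, linear from 0, 1 scale per gene) in the WT (blue) and Exon2KO (red) libraries; marker shape gives the column number, and bars are mean and SD of 3 libraries. Gata3, Rora, Prdm1, Irf4 and Batf show no overlap between genotypes, while Exon2KO 6 is at or above the WT range for Tbx21, Bcl6 and Maf.

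Among the lineage factors, Gata3 fell, and by a similar amount in every pair of same-numbered libraries. This zinc finger factor (ENSMUSG00000015619) spans chr2:9857078-9890034 on the minus strand. Its levels were 113, 121 and 137 CPM in WT 2, 6 and 20 and 79.3, 89.8 and 97.7 CPM in Exon2KO 2, 6 and 20. All WT values lay above all Exon2KO values, and in both genotypes the order of the numbers was the same. The mean fell from 124 ± 12.2 to 88.9 ± 9.25 CPM, and the fitted log2 fold change was -0.48 (SE 0.10; adjusted p = 0.0437 by edgeR). With the block it was -0.48 (SE 0.06, edgeR adjusted p = 7.26e-05). Without the block the call was lost when any single library other than Exon2KO 20 was left out, and without robust estimation (edgeR adjusted p = 0.0594). With single libraries left out, the fitted value stayed between -0.56 and -0.40 and the edgeR adjusted p between 0.0318 and 0.199. The overlapping genes Gm13256, 4930412O13Rik and 9230102O04Rik had 37, 10 and 10 counts over all libraries against 12150 for Gata3.

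Rora encodes an orphan nuclear receptor of the ROR family and spans chr9:68653786-69388246 on the plus strand. It stood at 68.4, 54.5 and 114 CPM in WT 2, 6 and 20, and at 32.7, 35.04 and 43.0 CPM in the Exon2KO libraries of those numbers. The genotypes did not overlap, but WT 20 was far above the other WT libraries. The mean of 78.9 ± 31.1 CPM in WT stood against 36.9 ± 5.41 CPM in Exon2KO, which is 46.8% of WT. Its log2 fold change was -1.10 (SE 0.29, edgeR adjusted p = 0.187), which did not pass, and -1.04 with the block (SE 0.14, edgeR adjusted p = 0.00801), which did. Leaving out WT 20, the high library, gave -0.73 (edgeR adjusted p = 0.0458), and leaving out both libraries numbered 20 gave -0.86 (edgeR adjusted p = 0.00654). In the block fit, leaving out both libraries numbered 2 ended the call (log2 fold change -1.03, edgeR adjusted p = 0.0737). DESeq2 called Rora as well (adjusted p = 3.15e-05), in a fit where 2.56% of the genes given an adjusted p were called lower.

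Tbx21, which encodes the type 1 factor T-bet, was low throughout. Its counts were 138 in WT 2, 182 in WT 6 and 184 in WT 20, then 166 in Exon2KO 2, 295 in Exon2KO 6 and 116 in Exon2KO 20. In CPM the WT libraries lay between 7.41 and 10.02, and Exon2KO reached from 6.53 (Exon2KO 20) to 15.1 (Exon2KO 6), on both sides of WT. The log2 fold change was 0.25 (SE 0.29, edgeR adjusted p = 0.854), and its sign rested on Exon2KO 6: without that library it was -0.15, and without Exon2KO 20 it was 0.48.

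Bcl6 encodes a repressor that defines follicular helper and follicular regulatory cells, and it was the steadiest of the 10 in WT, at 37.6, 38.1 and 37.0 CPM. In Exon2KO it was 35.8, 50.8 and 34.5 CPM for numbers 2, 6 and 20. Exon2KO 6 stood alone above WT and the other Exon2KO libraries lay just below it. Its fitted log2 fold change, 0.10 (SE 0.14; adjusted p = 0.882 by edgeR), turned to -0.11 without Exon2KO 6 and was 0.20 without Exon2KO 20.

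Maf, a bZIP factor that promotes IL-10 and follicular genes, had a wide spread in Exon2KO. WT 2, 6 and 20 had 182, 253 and 233 CPM, and Exon2KO 2, 6 and 20 had 147, 277 and 85.6 CPM. Exon2KO 6 exceeded every WT library, while Exon2KO 20 lay at 36.8% of WT 20. The highest Exon2KO library was 3.24 times the lowest, against 1.39 times in WT. The log2 fold change was -0.39 (SE 0.46, edgeR adjusted p = 0.865), which became -0.95 if Exon2KO 6 was dropped and -0.07 if Exon2KO 20 was.

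Among the factors of the effector Treg state, Batf fell. This small bZIP factor, which pairs with JUN proteins and IRF4, lies at chr12:85686669-85709087 on the plus strand (ENSMUSG00000034266). It had 69.5, 87.0 and 79.4 CPM in WT 2, 6 and 20 and 45.4, 61.2 and 51.0 CPM in Exon2KO. All Exon2KO libraries were below all WT libraries, and number 6 was highest in each genotype. Each Exon2KO library held 64.2% to 70.3% of the WT library of its number. The mean fell from 78.7 ± 8.77 to 52.5 ± 8.01 CPM, with a fitted log2 fold change of -0.58 (SE 0.12; adjusted p = 0.0459 by edgeR), or -0.59 with the block (SE 0.07; adjusted p = 3.11e-05 by edgeR). Without the block the call was lost when any library other than Exon2KO 6 was left out (edgeR adjusted p up to 0.199), when both libraries numbered 20 were (0.185), and without robust estimation (0.0600).

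Irf4, the partner of BATF at composite sites and a gene induced by T cell receptor signals, lies at chr13:30749226-30766976 on the plus strand. Its values were 116, 124 and 132 CPM in WT 2, 6 and 20 and 87.5, 112 and 94.6 CPM in Exon2KO. Exon2KO 6, the highest Exon2KO library, lay just below WT 2, the lowest WT library, so the gap between the genotypes was narrow. The log2 fold change was -0.34 (SE 0.10, edgeR adjusted p = 0.167), and with the block it passed at -0.34 (SE 0.07, edgeR adjusted p = 0.00455). Without the block and without a count filter it passed as well (edgeR adjusted p = 0.0320). The blocked call was lost without both libraries numbered 2 (edgeR adjusted p = 0.206) and without both numbered 20 (0.0635).

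Prdm1, which encodes the repressor BLIMP1, differed more in size but also between replicates. It had 38.4, 49.5 and 51.9 CPM in WT 2, 6 and 20 and 19.3, 31.1 and 12.5 CPM in Exon2KO. The genotypes did not overlap, yet Exon2KO 6 held 2.49 times the level of Exon2KO 20. The mean was 46.6 ± 7.19 CPM in WT and 20.9 ± 9.41 in Exon2KO. The fitted log2 fold change, -1.15 (SE 0.33, edgeR adjusted p = 0.206) did not pass, nor did -1.21 with the block (SE 0.37, edgeR adjusted p = 0.255). It passed without Exon2KO 6 (-1.56, edgeR adjusted p = 0.0174), and with the block when both libraries numbered 20 were left out (-0.82, edgeR adjusted p = 0.000494).

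Nfil3 encodes a bZIP repressor that tunes type 17 and innate lymphoid programmes and opposes clock factors at shared sites. It had 17.9, 25.7 and 42.0 CPM in WT 2, 6 and 20 and 11.7, 19.1 and 13.4 CPM in Exon2KO. Only Exon2KO 6 reached the WT range, where it lay above WT 2. The log2 fold change was -0.95 (SE 0.34, edgeR adjusted p = 0.317), and -0.91 with the block (edgeR adjusted p = 0.207). Without WT 20, the high library, the value was -0.57 (edgeR adjusted p = 0.428). With the block it passed when both libraries numbered 20 were left out (-0.52, edgeR adjusted p = 0.0342). DESeq2 called the gene (adjusted p = 0.0130).

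Pparg, the nuclear receptor known for Tregs of visceral fat, was near the limit of these libraries. Its counts were 15 in WT 2, 9 in WT 6 and 28 in WT 20, then 4 in Exon2KO 2, 11 in Exon2KO 6 and 1 in Exon2KO 20. The genotypes overlapped, since Exon2KO 6 had more than WT 6, and the single count of Exon2KO 20 was under the 3 counts taken as shown. Its log2 fold change was -1.60 (SE 0.69, edgeR adjusted p = 0.390), which became -2.61 if Exon2KO 6 was dropped and -1.14 if Exon2KO 20 was. With the block it passed only when both libraries numbered 6 were left out (edgeR adjusted p = 0.0167).

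**Figure D2:**
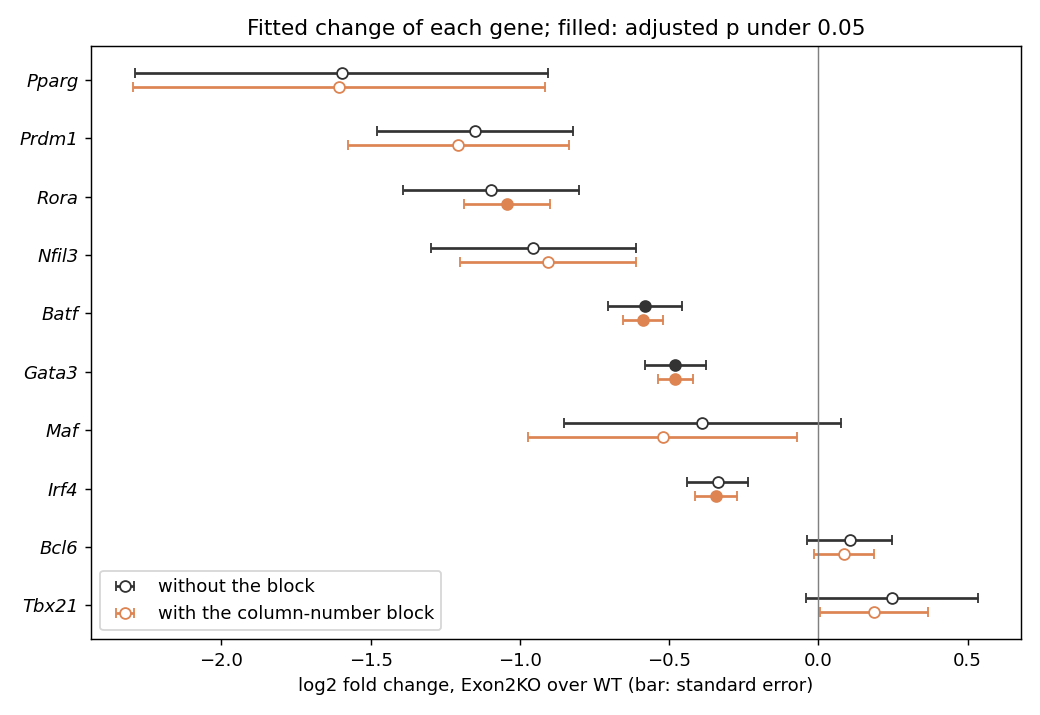
Fitted log2 fold change, Exon2KO over WT (x axis), of each gene (y axis) with its standard error, without the block (black) and with the column number as a block (orange); filled points have an adjusted p under 0.05. Gata3 and Batf pass in both fits at about the same value, and Rora at -1.04 and Irf4 at -0.34 pass with the block.

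The size of the difference varied between the column numbers for most of the 10 genes. Each number has 1 library per genotype, so a dependence on the number cannot be told from single libraries standing apart and was not tested. Between Exon2KO and WT libraries of number 20 all 10 genes were lower, with a median difference of -1.02 in log2 CPM. For number 2, 9 were lower and the median was -0.57, and for number 6 it was 6, with a median of -0.28. Over all tested genes these medians were 0.013, 0.0058 and -0.0046 in the same order. Number 6 gave the highest (least negative) difference for each of the 10 genes, as it did for 33.9% of all tested genes, and number 20 gave the lowest for 9 of the 10, against 34.1%. The 10 values come from the same libraries and are not independent of each other. Gata3 and Batf were the exceptions in size, at -0.52, -0.43 and -0.49 and at -0.61, -0.51 and -0.64 for numbers 2, 6 and 20. Prdm1 ranged from -0.67 (number 6) to -2.04 (number 20), Rora from -0.64 to -1.40, and Maf from 0.13 to -1.44. In Exon2KO 6, which was the highest Exon2KO library for 8 of the 10 genes, Gzmk, Il21 and Ifng, picked after their values were seen, were also highest. Gzmk stood at 21.8 CPM there and at no more than 1.06 CPM in the other 5 libraries, Il21 at 28.6 CPM against 6.56 and 1.41 in the other Exon2KO libraries, and Ifng at 12.3 against 4.001 and 2.25 CPM. Other genes of the same lists were not: Il12rb1 was at 3.13 CPM in Exon2KO 6 against 7.61 and 7.48 in the other Exon2KO libraries. Their part in the levels of the 10 factors was not tested.

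**Figure D3:**
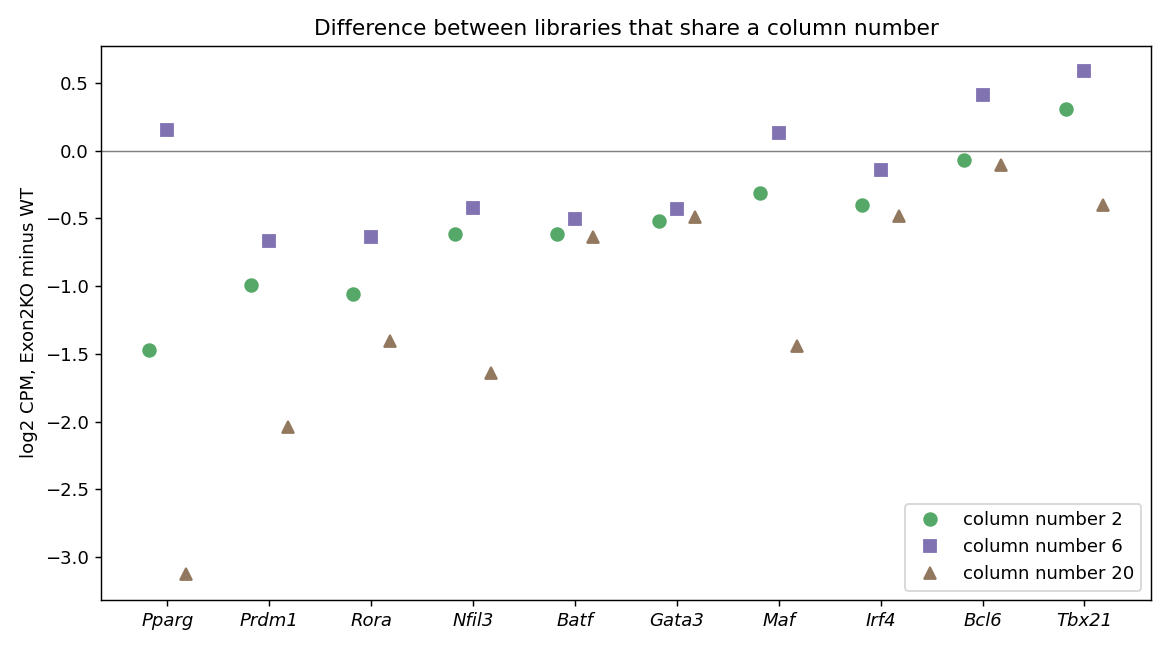
Difference in log2 CPM, Exon2KO minus WT (y axis), between the libraries that share a column number, for each gene (x axis, ordered by fitted change). Points of number 6 lie highest for all 10 genes, and Gata3 and Batf have points that lie close together, from -0.52 to -0.43 and from -0.64 to -0.51.

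Genes linked to the factors by textbook knowledge were counted in 9 lists, with 154 genes in all and 129 tested. Of these, 12 were called lower and 7 higher in Exon2KO, where 1.58% and 0.757% of all tested genes were. With the block 25 were called lower and 19 higher, where 5.79% and 3.93% of all tested genes were. These shares are the background of each list below. The lists were chosen with earlier results of these data known, so counts set beside the shares describe the lists and do not test them. Both counts of higher calls include Il17a and Ccl20, which passed the filter on low counts only through Exon2KO, so these counts lean upward. Leaving out Exon2KO 2 reduced the 19 calls of the fit without the block to 10.

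In the list tied to BATF, IRF4 and BLIMP1, 19 of 20 genes had a negative change, 10 fell and none rose, with a median log2 fold change of -1.20; with the block 12 fell and none rose. At an unadjusted p under 0.05, edgeR gave 16 lower and 0 higher, where 7.0% and 5.13% of all tested genes were. DESeq2 called 14 lower and 0 higher, where 2.56% and 1.32% of all genes with an adjusted p were. By limma-voom 11 were lower and 0 higher, where 1.51% and 0.684% of all tested genes were. The largest calls were Klrg1, an inhibitory receptor of differentiated Tregs (28.2 ± 9.58 to 2.60 ± 0.28 CPM), and Il1rl1, which encodes the IL-33 receptor (60.0 ± 17.2 to 8.85 ± 2.73 CPM). Itgae, the integrin chain CD103, followed at 345 ± 35.6 and 78.3 ± 7.67 CPM, and the chemokine receptor Ccr8 at 39.0 ± 4.51 and 11.8 ± 2.93 CPM. Of the 10 calls, those of Tnfrsf9, Fgl2, Ctla4 and Ikzf2 were each lost in at least 1 fit without a single library. Their edgeR adjusted p-values there reached 0.0818, 0.0759, 0.0566 and 0.122. Il10, a target of both BLIMP1 and c-MAF, did not pass (log2 fold change -0.06, edgeR adjusted p = 0.991). It was at 6.33, 17.4 and 3.88 CPM in Exon2KO 2, 6 and 20, so that Exon2KO 6 was the high library here too.

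In the GATA3 list, 7 of 10 tested genes were negative and 3 fell (Il1rl1, Ccr8 and Il17rb, the last encoding the IL-25 receptor), with a median of -0.48. With the block 4 of its genes were called lower and 2 higher, the latter being Il4ra, a chain of the IL-4 receptor (log2 fold change 0.23, edgeR adjusted p = 0.0280), and Zfpm1, a GATA cofactor (0.23, edgeR adjusted p = 0.0337). Il1rl1 and Ccr8 also belong to the previous list. Il17rb went from 14.7 ± 2.65 to 5.02 ± 1.74 CPM. Leaving out WT 2 or Exon2KO 2 ended its call (edgeR adjusted p = 0.0903 and 0.0961). Il4, Il5, Il13 and Ptgdr2 had too few counts to be tested.

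In the ROR list, 4 of the 10 tested genes rose and none fell; with the block 5 rose and none fell. Of the 4, Il17a and Ccl20 passed the filter on low counts only through Exon2KO, where they were high, so a count over the tested genes leans upward and supports no direction of the list. Both were left untested when 10 counts were asked of every library. At an unadjusted p under 0.05, edgeR gave 2 lower and 5 higher without the block, where 7.0% and 5.13% of all tested genes were. DESeq2 called 1 lower and 5 higher (2.56% and 1.32% of all genes with an adjusted p), and limma-voom 0 lower and 4 higher (1.51% and 0.684% of all tested genes). Il17a counts were 0, 0 and 1 in the WT libraries against 14, 16 and 11 in Exon2KO, at least 4.75-fold higher than the 3 counts per library taken as shown. Ccl20, the ligand of CCR6, went from 0.291 ± 0.033 to 4.13 ± 1.53 CPM. Il1r1 went from 0.868 ± 0.23 to 6.10 ± 3.16 CPM and Tgfbr2 from 286 ± 9.29 to 396 ± 19.4 CPM. Ccr6 itself, also in this list, was lower without overlap, at 35.9 ± 6.94 CPM in WT and 17.1 ± 6.22 in Exon2KO. DESeq2 called Ccr6 lower, while edgeR did not call it without the block (adjusted p = 0.168) or with it (0.0722). Leaving out single libraries ended the call of Il17a for WT 2, WT 6, WT 20, Exon2KO 2 and Exon2KO 6 (edgeR adjusted p up to 0.105), that of Il1r1 for WT 2, WT 6 and Exon2KO 2 (up to 0.0726), and that of Tgfbr2 for WT 2, Exon2KO 2 and Exon2KO 6 (up to 0.0699).

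No gene of the T-bet list (12 tested, median 0.0088), the BCL6 and c-MAF list (14 tested, median 0.055), the PPARγ lipid list (9 tested, median -0.12) or the clock list of NFIL3 and ROR partners (14 tested, median -0.13) was called by edgeR without the block. With the block 2 genes of the T-bet list were called lower, Il18rap (-0.74) and Runx3 (-0.47), and in the BCL6 and c-MAF list 2 were called lower and 4 higher. In the same fit 3 lipid genes (Fabp5, Dgat2 and Rxra) and 1 clock gene (Bhlhe40) were called lower and none higher. At an unadjusted p under 0.05 without the block, edgeR gave 2 genes lower in the T-bet list, 3 lower and 5 higher in the BCL6 and c-MAF list, 3 lower in the lipid list and 1 higher in the clock list, beside the same 7.0% lower and 5.13% higher over all tested genes. DESeq2 called 2 lower in the T-bet list, 1 lower and 2 higher in the BCL6 and c-MAF list, 2 lower in the lipid list and 1 higher in the clock list, where 2.56% of all genes with an adjusted p were lower and 1.32% higher. The only limma-voom call in these lists was 1 lipid gene, lower, where 1.51% of all tested genes were lower and 0.684% higher.

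**Figure D4:**
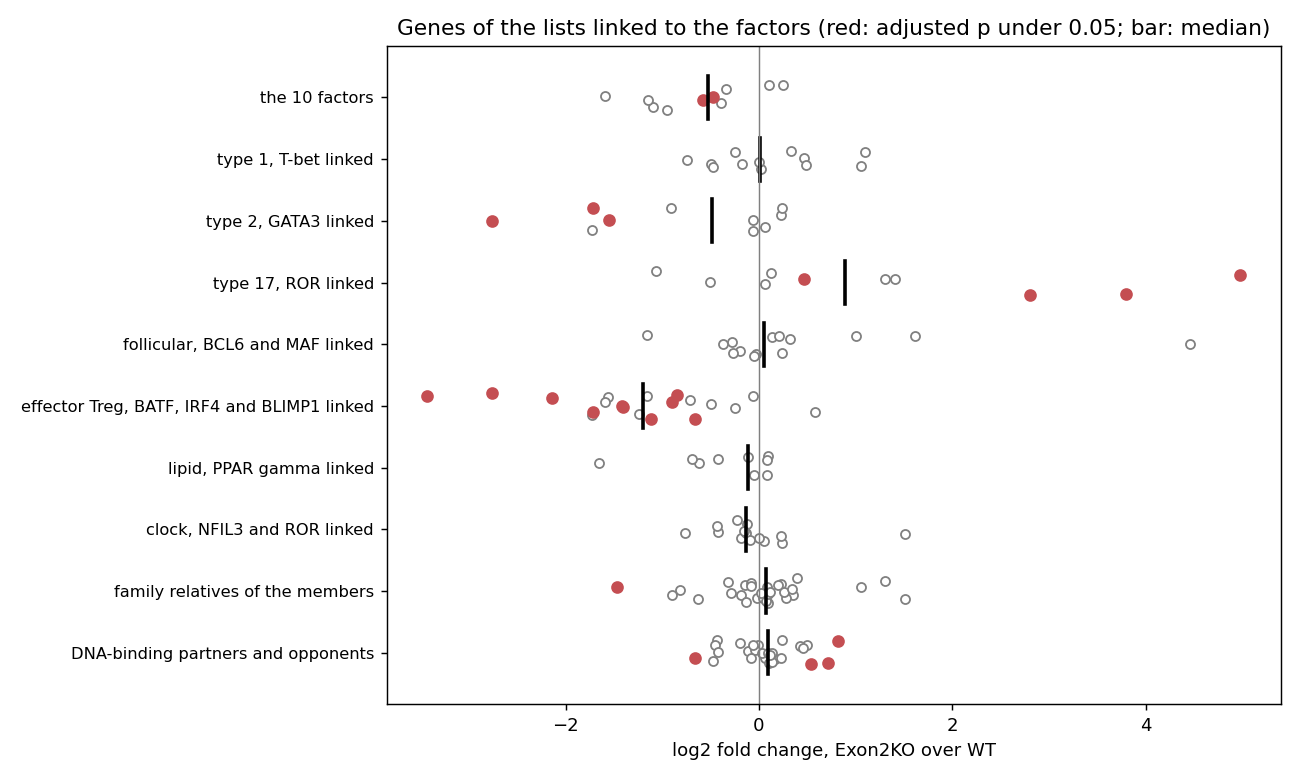
Log2 fold change, Exon2KO over WT, without the block (x axis) of the tested genes of each list (rows), 1 point per gene; red points have an adjusted p under 0.05 and black bars are medians. The list tied to BATF, IRF4 and BLIMP1 has a median of -1.20 with 10 red points, all below 0, and the ROR list has 4 red points above 0, of which Il17a and Ccl20 passed the count filter only through Exon2KO.

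The 10 genes were also set beside the other DNA-binding proteins of the table. It assigns a transcription factor family to 1586 genes, of which 926 were tested; this column was taken up after the data had been seen. Of the 926, 5 were called lower (0.54%, against 1.58% of all tested genes) and 6 higher (0.648% against 0.757%), with a median log2 fold change of 0.028, and Gata3 and Batf were among the 5. The others were Irf5 (26.2 ± 1.97 to 9.42 ± 1.83 CPM), Ikzf2, which encodes Helios (685 ± 77.7 to 434 ± 61.6 CPM), and Zfp870. With the block 48 were called lower (5.18% against 5.79% of all tested genes) and 42 higher (4.54% against 3.93%), shares near the background. In the families of the 10 genes, 1 of 9 tested GATA-type genes was called, which is Gata3. Among 44 tested bZIP genes 1 was called, Batf, and among 9 IRF genes 1, Irf5. In the zf-C2H2 class, to which the table assigns Prdm1, 2 of 439 tested genes were called lower (Ikzf2 and Zfp870) and 1 higher (Klf2). No T-box or ZBTB gene was called without the block, nor any of the 13 tested genes of the THR-like class, the one given for Rora and Pparg. With the block, the genes called lower and higher were 13 and 13 in zf-C2H2, 6 and 3 in bZIP and 3 and 1 in IRF. In that fit they were 2 and 1 in ZBTB, 1 and 1 in the THR-like class, 1 and 0 in GATA-type and 0 and 0 in T-box. Over all tested genes 5.79% were lower and 3.93% higher with the block. The listed relatives Gata2, Gata4, Gata6 and Rorb had 0 counts in every library, and the BATF relatives Batf2 and Batf3 had too few to be tested. Of 27 tested partners and opponents, 1 was called lower and 3 higher, and with the block 4 lower and 7 higher. Tcf7 (643 ± 37.2 to 1133 ± 46.3 CPM), Satb1 (296 ± 17.8 to 487 ± 42.7 CPM) and Klf2 (295 ± 33.8 to 429 ± 9.93 CPM) were the 3 that rose. With the block Lef1, Bach2, Id2 and Zfpm1 were called higher as well (edgeR adjusted p = 0.00011, 0.00011, 0.0312 and 0.0337). Fosb, Runx3 and Rxra were called lower besides Ikzf2 in that fit. Foxo1 and Id3 did not pass in either fit (log2 fold changes of 0.03 and -0.05 without the block). Leaving out any single library except Exon2KO 20 ended the call of Ikzf2 (edgeR adjusted p up to 0.122), and leaving out WT 2, Exon2KO 2 or Exon2KO 6 that of Klf2 (up to 0.0961). The JUN family partners of BATF did not pass: Jun and Junb had log2 fold changes of 0.16 (SE 0.18) and 0.06 (SE 0.28).

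For the 4 factors called in either fit, the protein-coding genes with the most alike course over the 6 libraries were sought among 9357 genes of at least 5 CPM. Likeness was the mean absolute difference in log2 CPM after each gene was centred on its mean. For Gata3 they were Rilpl2 (0.031), Dapp1 (0.032) and Ptger4 (0.047), the last encoding a prostaglandin E2 receptor. For Batf they were Spin2c (0.043), Galm (0.047) and Lxn (0.055). Irf4 was closest to Tmem109 (0.032), Gng2 (0.039) and the tetraspanin gene Cd82 (0.040). For Rora the distances were larger, with Fam129b (0.10), 2900026A02Rik (0.11) and the integrin gene Itga7 (0.11). With only 6 libraries, these distances describe the course and carry no test.

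The authors' deposited table lists adjusted p-values of 0.00332 for Gata3, 0.00248 for Batf, 3.19e-05 for Rora and 0.0132 for Nfil3. For Prdm1 and Irf4 the authors' deposited table gives 0.0896 and 0.124. Its log2 fold changes for these 6 genes, from -1.15 (Prdm1) to -0.33 (Irf4), lie close to those fitted here.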

How the data were processed

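RNA of 6 Treg libraries, 3 per genotype, was sequenced. The deposited table gives counts per gene, not normalized per the file headers, and these were used as deposited. Its other 6 per-library columns, in FPKM, were not used; levels planned in FPKM are given as CPM per kilobase of the deposited gene length. The authors also deposited, per the file headers, their own comparison of the genotypes, with p-values (raw and adjusted), the log2 fold change and each genotype's mean as a scaled count signal. The submitters' processing notes name HISAT2 2.0.5, StringTie 1.3.3b, featureCounts 1.5.0-p3, DESeq2 1.16.1 and the build mm10 (GRCm38); the strand setting is not given in the sources used here. Of 55840 identifiers, 55394 occur in GENCODE mouse release 21, 55218 at the same position.

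Genotypes were compared with edgeR 4.0.16 (R 4.3.3): filterByExpr, TMM, robust quasi-likelihood fit, two-sided, Benjamini-Hochberg over all 14919 tested genes. SE is the absolute log2 fold change over the square root of F. CPM use TMM-scaled library sizes; log2 CPM add a prior count of 2. The column numbers were taken to pair the libraries because all 3 correlations of same-numbered deviations exceeded 0.1. No label says what the numbers mark. Libraries of different numbers were not correlated, so this check cannot show that the numbers pair the libraries. The chi-square per degree of freedom between libraries of 1 genotype was 8.12 to 23.6, so none was a duplicate within sampling noise. DESeq2 1.42.0, limma-voom (limma 3.58.1), other scalings and filters, the block and leaving out libraries served as alternatives. Scripts were tested on simulated data.

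The members, lists and tests were chosen with earlier results of these data known. The named genes are the 10 factors, the called genes of each list (at most 4, by size), the 3 closest genes of each called factor, overlapping genes, and others picked after their values were seen: Il10, Jun, Junb, Gzmk, Il21, Ifng, Il12rb1, Foxo1, Id3, single marker genes, uncalled or untested list genes, list genes called only with the block, and called factors outside the lists. Tnfrsf9 and Fgl2 were named because their calls were lost without single libraries.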

Additional observations from a re-analysis of the deposited data

How the results depend on the processing

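No paired fit on the replicate numbers of the titles was made, since the columns carry other numbers; the replicate block used the column number. The 348 genes called without it became 1450 with the block, 640 with DESeq2 and 617 if no counts were filtered out, and 86 to 314 after dropping any single library. The number of the 10 factors called, 2, became 4 with DESeq2, 4 with the block, 3 if no counts were filtered out (Irf4 added) and 0 without robust estimation, and lay between 0 and 2 after dropping a single library. Their median log2 fold change lay between -0.83 and -0.45 after dropping a single library and stayed within -0.61 to -0.49 in the other settings, except at -0.75 with the block and both libraries numbered 6 left out. The 19 calls in the linked lists became 44 with the block, 35 with DESeq2 and 29 if no counts were filtered out, and 10 to 26 after dropping a single library. The settings that leave out both libraries of a number were chosen after seeing the data. In the block fit without number 20 there were 900 genes, 5 factors and 44 linked genes called, and without number 6 there were 1441, 5 and 50; without number 2 there were 277, 2 and 19. With single libraries dropped, Tbx21 reached 0.48 and Bcl6 0.20 (both without Exon2KO 20); Tbx21 turned to -0.15 without Exon2KO 6 and to -0.047 in the block fit without number 6, and Bcl6 to -0.11 and -0.091; the other 8 factors kept their direction in every setting that tested them, as did Il1rl1, Ccr8, Il17rb, Il17a, Ccl20, Il1r1, Tgfbr2, Klrg1, Itgae, Irf5, Tcf7, Satb1, Ikzf2 and Klf2, the linked genes tabulated over the settings. The block lowered edgeR's common biological coefficient of variation from 17.3% to 8.56%; other causes were not tested. The order of levels, with 7 separated pairs of neighbours, has no second setting, since the FPKM planned for it were not used. Filtering at 10 counts in every library left Pparg, Il17a and Ccl20 untested.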

Other observations

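The table's other called factors, described in no list, were Zfp870, a zinc finger gene that fell from 16.6 ± 1.95 to 10.2 ± 0.70 CPM (SD, n = 3 each; edgeR adjusted p = 0.0405), and 3 genes that rose. Arid5a, an RNA-binding ARID protein, went from 127 ± 9.58 to 171 ± 6.76 CPM (edgeR adjusted p = 0.0247). Gtf2i went from 236 ± 12.2 to 321 ± 11.1 CPM (edgeR adjusted p = 0.0162), and Smad7, an inhibitor of TGF-beta signalling, from 206 ± 7.36 to 282 ± 28.5 CPM (edgeR adjusted p = 0.0324). With the replicate block their adjusted p-values were 0.00288, 0.000212, 0.000132 and 0.000322. Without the block, leaving out any single library ended the call of Zfp870 (edgeR adjusted p up to 0.184). The call of Arid5a was lost without any library but WT 6 (up to 0.113), that of Smad7 without any but Exon2KO 6 (up to 0.140), and that of Gtf2i without WT 2, Exon2KO 2 or Exon2KO 6 (up to 0.118).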
